A study of Mus musculus with 8 samples.

Results

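The genes described here encode the 3 kinases of the protein kinase D family (Prkd1, Prkd2 and Prkd3) and 7 isoforms of protein kinase C (Prkca, Prkcb, Prkcd, Prkce, Prkch, Prkci and Prkcz). They were chosen by gene symbol, and all 10 had a row among the 18022 genes of the deposited count table. The study sequenced poly(A) RNA of subcutaneous adipose tissue from 8 mice of strain C57BL/6J (back-crossed 4x). The 4 control mice had the genotype Pkd1(flox/flox) and are called WT, and the 4 mice with the genotype Pkd1adipo delta/delta, in which the study's title places the deletion in adipocytes, are called KO. A name such as KO2 is the library of the mouse with that label and replicate number. In these genotypes Pkd1 means protein kinase D1 (symbol Prkd1), not polycystin 1. The sources used here do not state age, sex, any treatment, the promoter that drives the recombinase or the exons removed.

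Protein kinase D enzymes are serine/threonine kinases that bind the lipid second messenger diacylglycerol through C1 domains. They are switched on when a PKC, chiefly one of the nPKC class defined below, phosphorylates their activation loop. Diacylglycerol is made when Gq-coupled receptors activate phospholipase C. Conventional PKC isoforms (alpha, beta) respond to calcium and diacylglycerol, the nPKC class to diacylglycerol alone, and atypical isoforms (iota, zeta) to neither. Of the nPKC class, delta, epsilon and eta are among the 10 genes, and theta (Prkcq) is not. In fat these kinases have been studied for their links to insulin action, lipid synthesis and energy expenditure.

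The libraries held between 2617755 and 2873457 reads. Adipocyte markers were present in all of them, with a summed level of 27526 to 30960 CPM (reads scaled to library size with TMM factors) in WT and 28227 to 32329 CPM in KO for 13 of 13 genes. Other markers differed between libraries. The 16 skeletal muscle markers found, of 18, summed to 147 to 574 CPM in WT and 437 to 3182 CPM in KO. The 11 T and NK cell markers found, of 12, summed to 19.4 to 29.5 CPM in WT and 12.4 to 19.0 CPM in KO, and the 7 B cell markers found, of 8, to 66.6 to 129 and 42.4 to 61.6 CPM. The 7 nerve and glia markers found, of 9, summed to 568 CPM in KO1 and to between 103 and 208 CPM in the other 7 libraries. The 2 epithelial markers found, of 9, summed to 2.84 to 20.2 CPM in WT and 0 to 2.47 CPM in KO, and the 8 liver markers to 276 to 1742 CPM in WT and 323 to 971 CPM in KO. In bulk tissue, fewer cells of a type and less RNA per cell cannot be told apart.

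The targeted gene, Prkd1, was at similar levels under both labels. Its levels were 32.1, 28.5, 33.4 and 26.4 CPM in WT1 to WT4, and 25.9, 36.8, 29.7 and 33.3 CPM in KO1 to KO4. The highest and the lowest of the 8 values were both in KO libraries, and the groups overlapped. The KO level was 1.04-fold the WT level, with a 95% interval from 0.835-fold to 1.31-fold (edgeR adjusted p = 0.998). A two-sided exact permutation test of the levels gave p = 0.629, and the smallest p that 4 against 4 can give is 0.0286. On the log2 scale this was a fold change of 0.06 ± 0.15 (SE). Leaving out KO2 gave -0.02, and adding the skeletal muscle marker level to the fit gave -0.10. A count over a whole gene in whole tissue does not show which exons or which cells the reads came from, so the deletion could not be checked here. In what follows, KO and WT stand for the labels of the libraries.

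**Figure D1:**
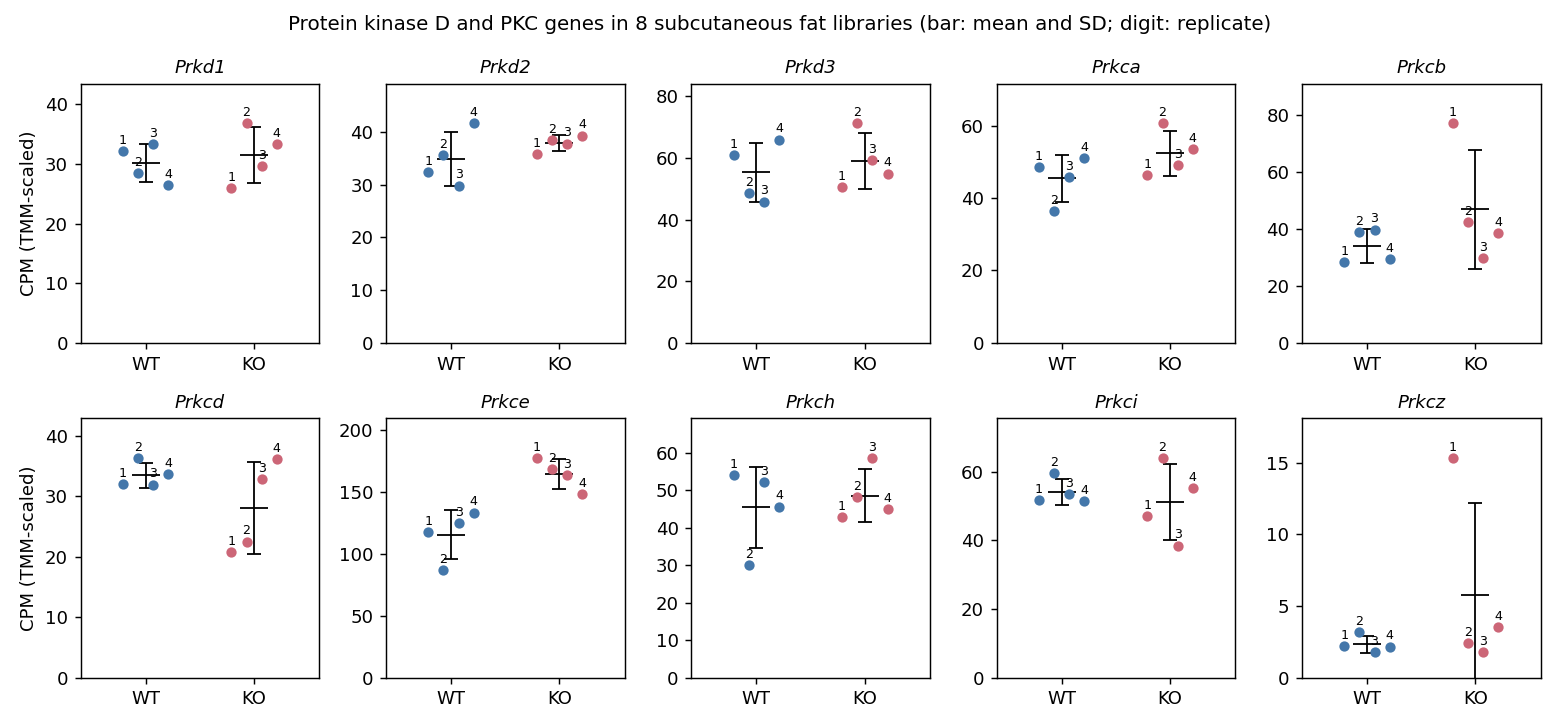
TMM-scaled CPM (y axis, from 0, a separate scale for each gene) of the 10 genes in the WT (blue) and KO (red) libraries. Points are libraries with their replicate number, and black bars are the group mean and SD of 4 libraries (the lower bar of Prkcz in KO runs below 0). Prkce is the gene whose groups do not overlap, and KO1 stands above the other libraries for Prkcb and Prkcz.

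On average Prkd1 gave the fewest reads of the protein kinase D family. It supplied 24.9% ± 3.09 (SD, n = 8) of the reads of the 3 family members, Prkd2 29.3% ± 2.46 and Prkd3 45.8% ± 2.86. This share compares genes inside one library and so needs no scaling between libraries. The Prkd1 share was 25.6% (95% Wilson interval 21.3% to 30.4%), 25.3% (20.6% to 30.6%), 30.6% (25.7% to 36.0%) and 19.7% (16% to 24.1%) in WT1 to WT4. It was 23.1% (18.8% to 28.2%), 25.1% (21.2% to 29.4%), 23.4% (19.3% to 28.0%) and 26.1% (21.8% to 30.9%) in KO1 to KO4, so all 4 KO shares lay inside the WT range. The intervals of WT3 and WT4, the highest and the lowest library, did not overlap. These intervals cover counting error only, over 285 to 430 reads a library. The order of the 3 genes depended on the length used. Divided by all annotated exon bases (3653 for Prkd1, 5051 for Prkd2 and 11017 for Prkd3), Prkd1 made up 40.5% ± 4.02 of the family (WT 41% ± 5.73, KO 40% ± 2) and was the highest of the 3. Divided by the longest annotated transcript (3653, 3628 and 5884 bases), it made up 30.0% ± 3.48 and was the lowest, below Prkd2 at 35.7% ± 2.87 and Prkd3 at 34.3% ± 2.6.

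The paralogues Prkd2 and Prkd3 differed between the labels by less than the spread of the mice. Prkd2, a kinase of the trans-Golgi network that is also active in lymphocytes and endothelium, was at 32.4, 35.6, 29.8 and 41.6 CPM in WT1 to WT4 and at 35.8, 38.5, 37.8 and 39.3 CPM in KO1 to KO4. The KO values lay inside the WT range, and their spread was narrower (SD 1.5 CPM against 5.1 CPM). Prkd3 was at 60.9, 48.6, 45.8 and 65.9 CPM in WT1 to WT4 and at 50.4, 71.2, 59.3 and 54.9 CPM in KO1 to KO4, again with overlap. The log2 fold changes were 0.12 ± 0.14 for Prkd2 and 0.09 ± 0.15 for Prkd3 (SE; edgeR adjusted p = 0.998 for both). As folds, the 95% intervals ran from 0.885 to 1.33 for Prkd2 and from 0.849 to 1.34 for Prkd3. The sign of Prkd2 turned with the lymphocyte marker level as a covariate (-0.04 ± 0.25, SE), and that of Prkd3 without KO2 (-0.01 ± 0.16).

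Prkce, the nPKC isoform epsilon, a kinase known for its part in lipid-induced insulin resistance, had the clearest separation of the labels among the 10 genes. Its levels were 118, 86.9, 125 and 133 CPM in WT1 to WT4 and 177, 168, 164 and 148 CPM in KO1 to KO4. Every KO library was above every WT library, and the reads behind these values were 220 to 368 in WT and 419 to 494 in KO. The means were 116 ± 20.2 and 164 ± 12.2 CPM (SD, n = 4 each). The KO level was 1.42-fold the WT level (95% interval 1.16 to 1.75), a log2 fold change of 0.51 ± 0.14 (SE). Prkce did not pass over all genes (edgeR quasi-likelihood test, unadjusted p = 0.0027, adjusted p = 0.905). Its unadjusted p was under 0.05 in each of 21 alternative fits, from 0.00118 to 0.0271, and its adjusted p stayed between 0.295 and 1.

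The value of Prkce kept its sign with each library left out, from 0.39 without WT2, the lowest library, to 0.58 without WT4. The T and NK cell, B cell and epithelial marker sums did not overlap between the labels. The epithelial sums were low, and their nearest values were 2.84 CPM in WT3 and 2.47 CPM in KO3. Skeletal muscle was above the WT range in 3 of 4 KO libraries. The part of these cells in the Prkce value was not tested beyond 2 covariate fits. With the skeletal muscle marker level as a covariate the log2 fold change was 0.55 ± 0.22 (SE), and with the lymphocyte marker level it was 0.75 ± 0.25. The SE without a covariate was 0.14. Because the lymphocyte marker sums did not overlap between the labels, that fit cannot separate these cells from the label. Over all libraries, Prkce against the skeletal muscle marker sum had a Pearson r of 0.64 (exact permutation p = 0.0814, adjusted p = 0.574). In KO3, whose muscle sum of 437 CPM was inside the WT range, Prkce was at 164 CPM, above all WT libraries. A value from this library alone does not test the part of muscle.

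Relative to Prkcd and Prkch, Prkce also took a larger part in KO. Of the summed level per kb of exon of Prkcd, Prkce and Prkch, it made up 55.6%, 53.2%, 57.5% and 60.2% in WT1 to WT4. It made up 72.2%, 69%, 62.2% and 62.1% in KO1 to KO4. Prkcq is not in this sum. The groups did not overlap on this measure, which rests on the same reads as the level itself. The size of these shares depends on the length used. By all exon bases the mean levels were 19.3 CPM per kb for Prkce, 6.24 for Prkch and 5.55 for Prkcd. By the longest annotated transcript they were 22.4, 12.9 and 10.8 CPM per kb, and the shares were not computed with that length. Prkce shares 472 bases, 6.5% of its annotated exon bases, with a same-strand transcript of unknown coding status that has no row of its own in the count table, so reads from that stretch cannot be assigned to either.

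Across the 10 genes, 0 passed an adjusted p of 0.05, and 9 passed the filter on low counts and were tested. The background over all 14556 genes tested was likewise 0, or 0%. At an unadjusted p under 0.05 there was 1 member, Prkce, where 4.48% of all tested genes reached that level. Prkce was also the 1 member with groups that did not overlap. Over all tested genes the groups did not overlap for 2.93%, and with KO higher for 1.53%. Among the 9 tested members, 7 log2 fold changes were above 0 and 2 below, and their median was 0.09, against 0.00 over all genes tested. DESeq2, the likelihood ratio test and limma-voom were run on the same 9 members and called 0. Prkcz was not put to them, and edgeR's exact test without a filter, under a single common dispersion, called 1 member, Prkcz, described below.

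**Figure D2:**
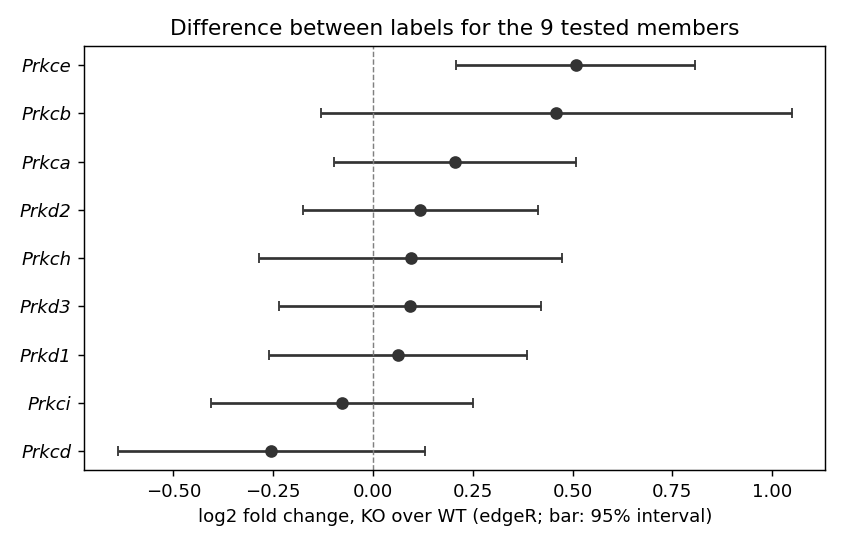
Log2 fold change of KO over WT (x axis) for the 9 tested genes, with points for the edgeR estimate and bars for its 95% interval. The interval of Prkce, from 0.21 to 0.81, lies above 0 before adjustment, and the other 8 intervals cross 0.

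The remaining nPKC isoforms among the members, Prkcd and Prkch, overlapped between the labels. Prkcd, isoform delta, a kinase with roles in apoptosis and immune tolerance, was at 32.1, 36.4, 31.9 and 33.7 CPM in WT1 to WT4 and at 20.8, 22.5, 32.8 and 36.1 CPM in KO1 to KO4. KO1 and KO2 were below all WT libraries, and KO3 and KO4 were inside the WT range. The log2 fold change was -0.25 ± 0.18 (SE; edgeR adjusted p = 0.998, 95% interval of the fold 0.642 to 1.09). It was -0.14 without KO1 and -0.16 without KO2, and -0.40 without KO4. With the lymphocyte marker level as a covariate it was -0.75 ± 0.30 (SE), and with the skeletal muscle level -0.11 ± 0.28. The lymphocyte fit has the limit given above for Prkce.

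Prkch, isoform eta, known from epithelium and lymphocytes, was at 53.9, 30, 52.2 and 45.6 CPM in WT1 to WT4 and at 42.7, 48.1, 58.6 and 44.9 CPM in KO1 to KO4. WT2 held the lowest and KO3 the highest value. The log2 fold change of 0.09 ± 0.18 turned to -0.06 without WT2 and to -0.01 without KO3. WT2 was also the lowest library for Prkca and Prkce.

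The conventional isoforms differed in how evenly they were spread. Prkca, isoform alpha, the widely expressed calcium-dependent PKC, was at 48.5, 36.4, 45.8 and 51.1 CPM in WT1 to WT4 and at 46.4, 60.7, 49.1 and 53.4 CPM in KO1 to KO4. Its log2 fold change was 0.21 ± 0.14 (SE; edgeR adjusted p = 0.998), with a 95% interval of the fold from 0.934 to 1.42, and it stayed between 0.11 and 0.26 with each library left out. Prkca shares 30 annotated exon bases with Apoh, on the opposite strand, which is 0.334% of its exon bases.

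Prkcb, isoform beta, abundant in B lymphocytes and brain, had a value that rested on KO1. It was at 28.4, 38.7, 39.7 and 29.3 CPM in WT1 to WT4 and at 77.1, 42.3, 29.7 and 38.6 CPM in KO1 to KO4. KO1 was 1.82 times the highest of the other libraries, which overlapped. The log2 fold change was 0.46 ± 0.27 (SE; edgeR adjusted p = 0.998) over all 8 libraries and 0.12 ± 0.18 without KO1. With the skeletal muscle level as a covariate it was -0.16.

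The atypical isoforms, Prkci and Prkcz, differed widely in level. Prkci, isoform iota, a partner of the cell polarity proteins, was at 51.7, 59.7, 53.6 and 51.4 CPM in WT1 to WT4 and at 47.1, 64.1, 38.5 and 55.2 CPM in KO1 to KO4. Its log2 fold change of -0.08 ± 0.15 (SE; edgeR adjusted p = 0.998) was 0.04 without KO3, the lowest library. Prkcz is isoform zeta, and its gene also encodes a short form of the kinase found in brain. The WT libraries, 1 to 4, held 6, 8, 5 and 6 Prkcz reads, and the KO libraries 42, 7, 5 and 10. KO1 was 4.33 times the highest of the other libraries, at 15.3 CPM against 1.77 to 3.54 CPM. Prkcz did not pass the filter on low counts and was tested only where that filter was dropped, with a log2 fold change of 1.28 ± 0.66 (SE; edgeR quasi-likelihood adjusted p = 0.976).

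In the authors' deposited table Prkcz was the 1 member with an adjusted p under 0.05, at 0.0472, with a log2 fold change of 1.28. Of all genes in the authors' deposited table, 2.42% were past that threshold. The exact test under a single common dispersion gave Prkcz the same log2 fold change and adjusted p. With KO1 left out, that test gave a log2 fold change of 0.14 and an adjusted p of 1, and the quasi-likelihood test without a filter gave 0.14 ± 0.44 (SE, adjusted p = 0.99 in edgeR). The authors' deposited table gave Prkcb an adjusted p of 0.713 and Prkce one of 0.376.

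KO1 was also the library with the highest nerve markers. Snap25, a synaptic vesicle fusion protein of neurons, was at 69.4 CPM in KO1 and at 0.353 to 3.9 CPM elsewhere. Syt1, a calcium sensor of synaptic vesicles, was at 48.2 CPM in KO1 and at 0.706 to 3.75 CPM elsewhere. Mbp, a myelin protein, was at 306 CPM in KO1 and at 79.7 to 132 CPM elsewhere. The part of these cells in the Prkcb and Prkcz values was not tested beyond the fits without KO1 and, for Prkcb, a fit with the nerve marker level as a covariate, in which its log2 fold change was 0.41 ± 0.17 (SE; edgeR adjusted p = 0.954). Prkce was 177 CPM in KO1, its highest library, and its log2 fold change was 0.47 without KO1.

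**Figure D3:**
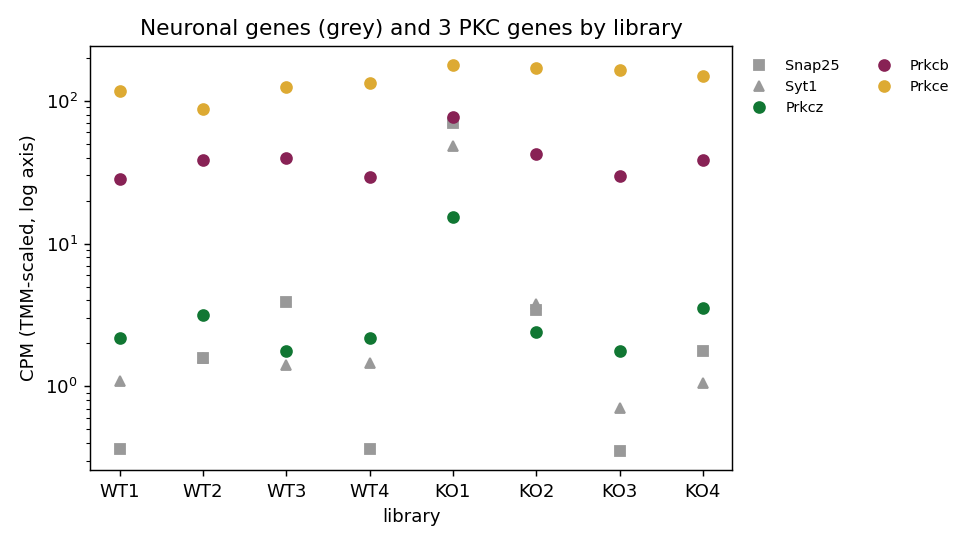
TMM-scaled CPM (y axis, log scale) in each of the 8 libraries (x axis) for the neuronal genes Snap25 and Syt1 (grey) and for Prkcz, Prkcb and Prkce (coloured). In KO1 the neuronal genes, Prkcz and Prkcb stand above all other libraries, while Prkce is high in all 4 KO libraries.

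Compared per length of annotated exon, Prkce was the most abundant of the 10 transcripts and Prkcz the least. Prkce was at 19.3 ± 4.18 CPM per kb (SD, n = 8), above 80.4% of the 13936 tested genes with an annotated length, whose median was 6.85 CPM per kb. Next came Prkci at 9.49 ± 1.4, Prkd1 at 8.42 ± 1.03, Prkd2 at 7.2 ± 0.758 and Prkch at 6.24 ± 1.15 CPM per kb. Prkcd was at 5.55 ± 1.06, Prkca at 5.44 ± 0.772, Prkcb at 5.29 ± 2.06 and Prkd3 at 5.18 ± 0.802 CPM per kb. Prkcz was at 0.64 ± 0.729 CPM per kb, and at 0.384 CPM per kb without KO1.

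Only the ends of this order were set apart from their neighbours. The values of Prkce did not overlap those of Prkci, which were lower in 8 of 8 libraries, and those of Prkd3 did not overlap those of Prkcz. From Prkci down to Prkd3, each gene overlapped the next in its values. When the longest annotated transcript was used as the length, Prkce and Prkcz kept their places and the other 8 genes changed theirs, with Prkd1 moving from place 3 to place 8.

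**Figure D4:**
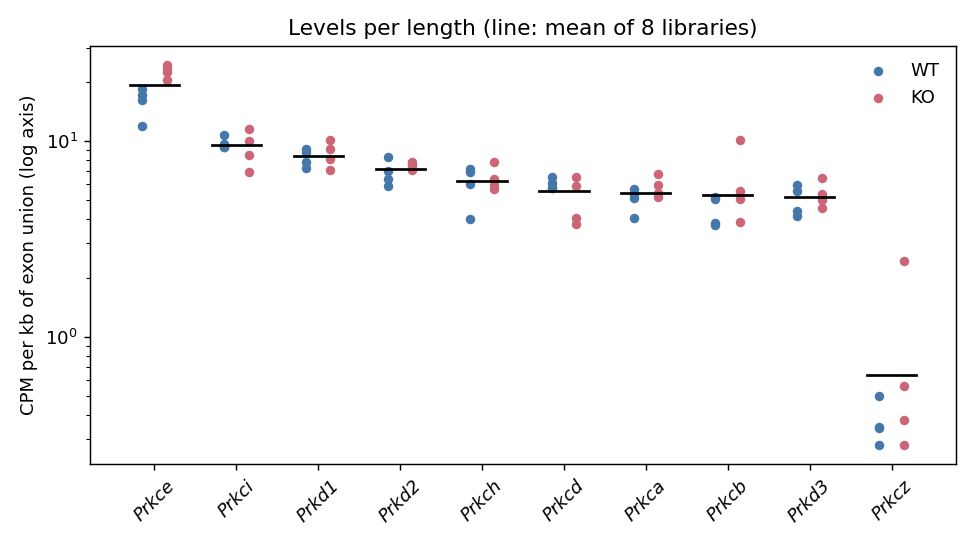
CPM per kb of annotated exon (y axis, log scale) for the 10 genes in order of their mean, with WT libraries in blue, KO libraries in red and the mean of 8 libraries as a line. Prkce lies above and Prkcz below the other 8 genes, and within these 8 each gene overlaps the next in the order.

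By class, the nPKC genes made up 42.6% ± 3.51 (SD, n = 8) of the summed level per kb of the 10 genes, protein kinase D genes 28.7% ± 2.24, conventional PKC genes 14.7% ± 2.06 and atypical PKC genes 14% ± 2.25. The protein kinase D part was 27.7% to 31% in WT and 23.8% to 29.5% in KO, and the groups overlapped. Prkce alone was 23.4% ± 2.88 of the sum in WT and 29.2% ± 1.99 in KO. The shares in this paragraph use all annotated exon bases as the length and were not computed with the longest transcript.

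The genes varied between mice by different amounts. The coefficient of variation of CPM within a label was 10.3% for Prkd2, 11.9% for Prkce, 12.9% for Prkca and 13% for Prkd1, where the number of reads alone would give 9.96%, 5.06%, 8.57% and 10.8%. For Prkd1 and Prkd2 the spread was close to that from counting. Prkcb (37.8%) and Prkcz (113%) varied most, against 9.44% and 30% from counting, and KO1 was the highest library for both.

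The 10 genes did not vary together beyond the adjustment for the number of pairs. Of 45 pairs compared over 8 libraries on log2 CPM, 4 had an unadjusted permutation p under 0.05 and 0 passed after Benjamini-Hochberg adjustment. The pair with the highest positive rank correlation was Prkd3 and Prkca, with Pearson r = 0.75 (exact permutation p = 0.0256, adjusted p = 0.492) and a Spearman coefficient of 0.81 (exact permutation p = 0.0218, adjusted p = 0.419), and r = 0.68 without KO2 and WT3. Prkch and Prkcz had a negative Spearman coefficient of the same size, -0.81 (exact permutation p = 0.0218, adjusted p = 0.419), with Pearson r = -0.38 (exact permutation p = 0.271). The pair of Prkcb and Prkcz had r = 0.89 (exact permutation p = 0.0234, adjusted p = 0.492), a Spearman coefficient of 0.48 (exact permutation p = 0.243, adjusted p = 0.94) and r = 0.42 without KO1 and WT1. These 2 libraries were left out together, as the farthest from the Prkcb median, so the part of each in r was not tested.

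Of 60 relations between the 10 genes and the summed levels of 6 marker lists, 3 had an unadjusted permutation p under 0.05 and 0 passed after adjustment. Prkce against the B cell markers had r = -0.78 (exact permutation p = 0.0201, adjusted p = 0.574) and a Spearman coefficient of -0.90 (exact permutation p = 0.00456, adjusted p = 0.274), and r = -0.94 without WT1 and WT3. Both measures differed between the labels, and no correlation over the 4 libraries of a single label is given. Prkcd against endothelial markers had r = 0.77 (exact permutation p = 0.0333, adjusted p = 0.574) and a Spearman coefficient of 0.79 (exact permutation p = 0.0279, adjusted p = 0.763), and 0.88 without KO3 and WT2.

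The genes whose pattern over the 8 libraries was most like that of Prkd1 were outside the kinase family. Among 11469 tested genes with a mean of at least 10 CPM, the 5 with the highest Pearson r on log2 CPM were Sbf2 (0.98), Fpgt (0.98), Tmem33 (0.98), Ptp4a2 (0.96) and 2610020C07Rik (0.96). Prkd3 and Prkd2 had an r of 0.24 and -0.24 with Prkd1, and Prkca the highest of the members tested, 0.51. These values describe 8 libraries, and the leading genes were picked from many.

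The genes around these kinases were read from 9 lists with 98 symbols, of which 76 were tested. None passed over all genes in edgeR's quasi-likelihood test, DESeq2, the likelihood ratio test or limma-voom. At an unadjusted p under 0.05 there were 5 with higher and 3 with lower values in KO, or 10.5% of the 76, beside 4.48% of all genes tested. The groups did not overlap for 3 higher and 1 lower, or 5.26%, beside 2.93% of all genes tested. The median log2 fold change of the 76 genes was 0.00, with 38 positive and 38 negative.

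The G protein subunit and phospholipase C lists had values on both sides. Of 4 Gq-class and G12/13 subunits tested, 3 were negative, with a median of -0.09, and Gna11, which couples receptors to phospholipase C, had -0.17 ± 0.11 (SE). Of 11 phospholipase C and phospholipase C-like genes tested (the latter Plcl1 and Plcl2), 6 were positive, with a median of 0.10. Plcb1, a phospholipase that Gq activates, was counted 246, 117, 296 and 214 times in WT1 to WT4 and 340, 382, 373 and 311 times in KO1 to KO4. Every KO library was above every WT library, at 124 ± 9.85 against 79.6 ± 24.9 CPM (SD, n = 4), and WT2 was the lowest. The log2 fold change was 0.64 ± 0.20 (SE; edgeR unadjusted p = 0.0069, adjusted p = 0.998), and 0.45 without WT2. Plcb4 had 0.29 ± 0.22, and 0.11 without WT2.

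Genes that use up diacylglycerol, or make it from phosphatidic acid, also had values on both sides. Of 9 diacylglycerol kinases, which turn the lipid into phosphatidic acid, 7 were positive, with a median of 0.23. Dgka was counted 37, 35, 32 and 40 times in WT1 to WT4 and 52, 81, 51 and 59 times in KO1 to KO4, with no overlap. Its log2 fold change was 0.69 ± 0.19 (SE; edgeR unadjusted p = 0.0024, adjusted p = 0.905) and was 0.54 without KO2. Dgkb, a kinase abundant in brain, had 0.77 ± 0.34 on 5 to 25 reads, with its highest count in KO1. Of 8 diacylglycerol lipases, which break the lipid down, and phosphatidate phosphatases, which make it, 4 were positive and 4 negative. Ppap2c, a phosphatase that makes diacylglycerol from phosphatidic acid, was counted 49, 50, 39 and 41 times in WT1 to WT4 and 17, 35, 26 and 38 times in KO1 to KO4, all lower, with a log2 fold change of -0.69 ± 0.24 (SE; edgeR adjusted p = 0.998). Daglb, a diacylglycerol lipase, had -0.32 ± 0.15.

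Of 4 other PKC and PKC-related kinases tested, 1 was positive, with a median of -0.06. Pkn2, a kinase with a catalytic domain like that of PKC, had a log2 fold change of 0.09 ± 0.20 (SE). Of 14 genes of PKC priming, folding and dephosphorylation, 6 were positive, with a median of -0.01. Phlpp1, a phosphatase that removes the hydrophobic-motif phosphate of PKC and AKT, was at 32.5 ± 2.33 CPM in WT and 41.4 ± 6.23 CPM in KO, with no overlap (log2 fold change 0.35 ± 0.14, edgeR adjusted p = 0.998), and 0.24 without KO3. Cdc37, a kinase co-chaperone, had -0.23 ± 0.13.

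Of 11 anchoring proteins and partners of atypical PKC tested, 5 were positive. Prkcdbp, a caveola protein that binds PKC delta, was at 233 ± 14.7 CPM in WT and 174 ± 43 CPM in KO, with a log2 fold change of -0.42 ± 0.16 (edgeR adjusted p = 0.998). It was -0.30 without KO3, its lowest library, and -0.85 with the skeletal muscle level as a covariate. Fez1, a neuronal partner of PKC zeta, had 57 reads in KO1, 27 to 44 in the other KO libraries and 19 to 28 in WT (log2 fold change 0.85 ± 0.24, edgeR adjusted p = 0.998), and its value was 0.15 with the skeletal muscle level as a covariate.

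Other proteins that bind diacylglycerol and the substrates of PKC had further values that rested on KO1. Of 7 C1 domain receptors tested, 4 were positive. Chn1, a Rac-regulating chimaerin of neurons, had 86 reads in KO1 and 29 to 52 elsewhere, and its log2 fold change of 0.50 ± 0.30 was 0.11 without KO1. Rasgrp1, a Ras activator of T cells that is also found in brain, had 43 reads in KO1 and 7 to 21 elsewhere, and its 0.76 ± 0.56 was 0.09 without KO1. Of 8 substrates tested 4 were positive, and Marcks, the classical membrane substrate of PKC, had -0.23 ± 0.15. The common-dispersion exact test called 1 of the 76 genes, Nrgn, a neuronal PKC substrate named here after its value was seen, with 100 reads in KO1 and 5 to 38 elsewhere. The authors' deposited table gave it an adjusted p of 0.005. Its log2 fold change in the exact test was 1.12 over all 8 libraries and -0.05 without KO1 (adjusted p = 1).

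**Figure D5:**
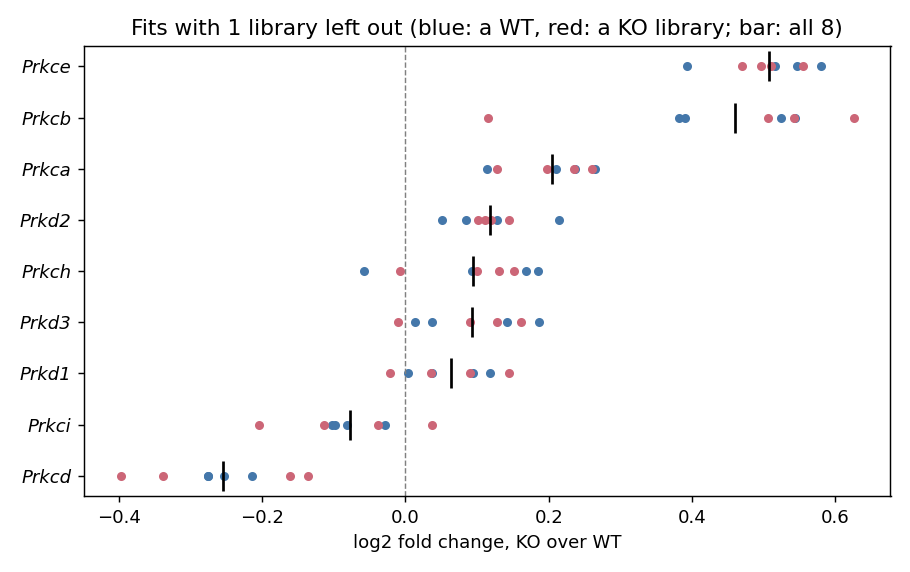
Log2 fold change of KO over WT (x axis) for the 9 tested genes when 1 library is left out (blue points leave out a WT library, red points a KO library), with a black bar for all 8 libraries. Prkce stays between 0.39 and 0.58, and Prkcb drops to 0.12 in the fit without KO1.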

How the data were processed

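Poly(A) RNA of 8 mice was sequenced from libraries whose kit keeps no strand, per the labels' protocols. The authors deposited raw read counts per gene. They also deposited a table of 1 comparison with log2 fold changes and p-values, per the file headers. FastQC, Bowtie2, edgeR and the build mm9 are listed in the submitters' processing notes without a role, and the sources used here do not name the counter. Columns were matched to samples by mouse label.

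All genes were fitted with edgeR 4.0.16 (R 4.3.3): TMM scaling, filterByExpr (14556 genes kept), the robust quasi-likelihood F test with the label as the only term, and Benjamini-Hochberg adjustment at 0.05. SE is the size of the log2 fold change divided by the square root of F. CPM is TMM-scaled, and permutations and correlations used log2 CPM with a pseudocount of 0.5. Exon lengths came from GENCODE M21, which is of another build than mm9, so no coordinates are printed. The code was tested on simulated data. Alternatives were other scalings, no filter, DESeq2 1.42.0, limma-voom (limma 3.58.1), edgeR's likelihood ratio and exact tests, a replicate block, marker covariates and each library left out. The nerve covariate, the fit without a filter or KO1 and the exact test without KO1, and the share by longest transcript, were chosen after seeing the data. The members and lists were chosen with earlier results of these data known. Named are all members, the 2 genes of each list with the smallest p, and the 5 most like Prkd1 in pattern; Nrgn was added after its value was seen, and some genes that the rule names are not reported here. No batch is given by the labels. No library was a copy of another: within a label, pairs of libraries differed by a chi-square of at least 4.45 per gene.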

Additional observations from a re-analysis of the deposited data

Results flagged for a closer look

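Of 34 groups of 4 libraries checked for a value far from the rest, 2 stood apart, and chance flags about 1 in 20 groups. Prkcz was at 15.3 CPM in KO1 and between 1.77 and 3.54 CPM in the other 3 KO libraries. The summed nerve and glia markers were at 568 CPM in KO1 and between 103 and 140 CPM in the other 3. The part of nerve RNA in the Prkcz value was not tested beyond the fits without KO1.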

How the results depend on the processing

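With 1 library left out, 0 to 50 genes of the whole table were called (50 without KO3, all higher) and 0 members. The likelihood ratio test called 34 genes (30 higher, 4 lower), DESeq2 36 (32 and 4) and the common-dispersion exact test 436, of which 178 were lower, or 270 (114 and 156) without KO1. That exact test called 1 member, Prkcz, at 1.28. Signs turned for Prkd1 (-0.10) and Prkcb (-0.16) with the muscle covariate and for Prkd2 (-0.035) with the lymphocyte covariate; the cause was not tested. With libraries left out, Prkd1 ranged from -0.022 (without KO2) to 0.145, Prkd3 from -0.011 (without KO2) to 0.187, Prkch from -0.058 (without WT2) to 0.186 and Prkci from -0.204 to 0.038 (without KO3). The Prkd1 share of protein kinase D reads was 40.5% once divided by exon length and 30.0% by longest transcript (added after seeing the data), and 2 of 10 genes kept their place in the order with the longest transcript as length. The labels do not say that a replicate number marks shared mice, litters or days. With the replicate block Prkd1 was 0.06 ± 0.17 (SE) and 0 genes were called. Same-numbered libraries had correlations of -0.29 to -0.14 in their deviations from the mean of their label, none of them positive. Because the values were centred within each label, this check cannot exclude a shared litter or day. Depth limits the precision for Prkcz, which had 5 to 10 reads outside KO1.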
